A study of Macaca mulatta with 12 samples.

Results

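The comparison described here is that of liver RNA from 3 rhesus macaques after against before a first exposure to ethanol, in the animals that later became light drinkers (LD). Its members are the 3 LD libraries made at baseline and the 3 made post-induction, 6 of the 12 libraries of the series, chosen by their titles and matched by animal number. The animals were males of about 4.6 years. A liver biopsy was taken at baseline, before any ethanol, and again at the end of an induction of 90 days in which each animal drank 0.5, then 1 and then 1.5 g of ethanol per kg per day, for 30 days at each dose. All animals received these same doses, and the class was assigned only afterwards, from free access to ethanol over 12 months, in which LD animals took 1.5 g per kg per day. The 3 animals classed later as very heavy drinkers (VHD), which took 4.0 g per kg per day and were sampled at the same 2 times, serve below only as a comparison. Time and ethanol cannot be told apart, because no animal went through the 90 days without ethanol, and the first biopsy preceded the second in every animal.

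The liver breaks down most ingested ethanol, through alcohol dehydrogenases, aldehyde dehydrogenases and the cytochrome P450 enzyme CYP2E1. It also secretes most plasma proteins, including the acute phase proteins that respond to inflammatory signals. Its immediate early genes, such as FOS, JUNB, MYC and KLF6, encode regulators that are switched on rapidly and briefly by growth factors, injury or stress. Growth signals of this kind are tied to ribosome biogenesis, the making of ribosomal RNA and its assembly in the nucleolus.

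Transcript counts of the LD libraries ranged from 5970033 (baseline, animal 1) to 21530865 (post-induction, animal 1), and mature miRNA counts from 127740 to 611883. The liver label was matched by hepatocyte markers: the 13 marker genes found summed to 171100 to 249400 CPM per library (CPM is the count scaled to the size of its library), and none was at 0 in all 6 libraries. Post-induction libraries of animals 2 and 3 stood apart from the other 4 on the main component of all 12 libraries (31.4% of the variance), at 79.32 and 79 against -67.78 to -16.56. On the same side of 0 lay VHD baseline animal 2 (45.2), taken before any ethanol, and VHD post-induction animals 1 and 3 (7.19 and 64.89). VHD baseline animals 1 and 3 (-60.07 and -5.598) and post-induction animal 2 (-45.71) lay on the other. The sides thus did not match the time points. Post-induction libraries of LD animals 2 and 3 also had the highest miRNA yield of LD, 43.51 and 34.17 miRNA counts per 1000 transcript counts, against 16.59 to 21.4 in the other 4. Results are therefore given by animal where they divide the animals. Because these are bulk samples, fewer cells of a type and less RNA per cell cannot be told apart.

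Changes from baseline were alike in animals 2 and 3 and different in animal 1. Over 18373 tested genes, the log2 change of animal 2 correlated with that of animal 3 at Pearson r = 0.634, whereas animal 1 gave r = -0.212 with animal 2 and -0.134 with animal 3. These are descriptions across genes, which share the depth of each library and are not independent. At least 2-fold lower were 1547 genes in animal 1, 2100 in animal 2 and 2195 in animal 3, and at least 2-fold higher were 1658, 3480 and 2441. In all 3 animals at once, 97 genes were at least 2-fold lower and 100 at least 2-fold higher.

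**Figure D1:**
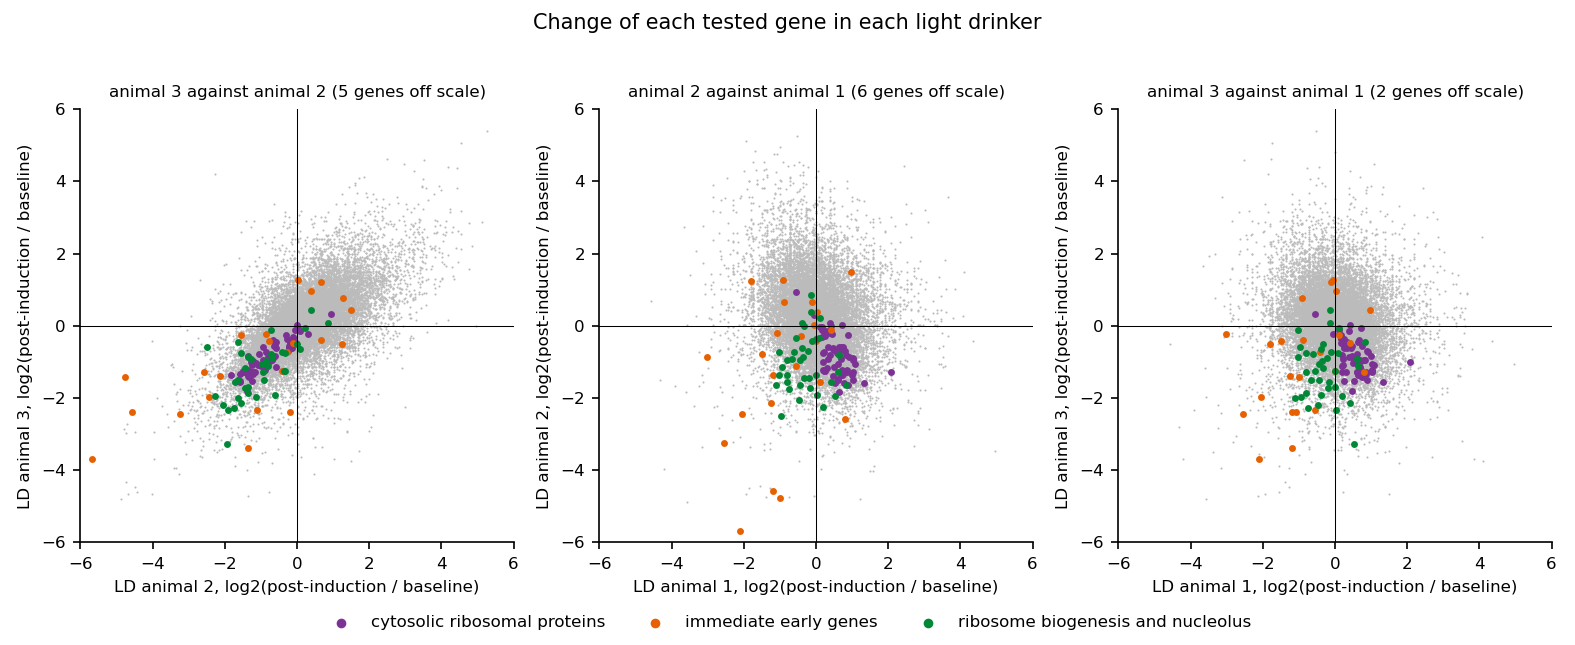
Log2 change (post-induction over baseline) of each of the 18373 tested genes (grey) in one light drinker against another, with members of 3 gene lists in colour. Cytosolic ribosomal proteins lie below 0 in animals 2 and 3 and above 0 in animal 1, while most immediate early and ribosome biogenesis genes lie below 0 in all 3.

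With this spread between animals, no single gene passed the main test. The quasi-likelihood F test of edgeR, adjusted by Benjamini-Hochberg over all genes, called 0 of 18373 genes (0%) at 0.05, the smallest adjusted p being 0.483, and 1046 genes (5.69%) had an unadjusted p under 0.05, 435 of them lower (2.37%) and 611 higher (3.33%). Leaving out post-induction animal 1 raised the number at an edgeR unadjusted p under 0.05, both directions together, from 1046 to 3089. Leaving out post-induction animal 2 brought it to 494, and each time there were 0 calls. DESeq2, run as an alternative, called 54 genes, 47 lower (0.256%) and 7 higher (0.0381%), and 53 of the 54 had post-induction values in all 3 animals beyond all 3 baseline values. The genes named below as called are DESeq2 calls, and their adjusted p from DESeq2 is given beside the log2 change and standard error (SE) from edgeR. With a term for the animal and the 6 LD libraries alone, edgeR called 3 genes, all lower: RGCC and the identifiers ENSMMUG00000018025 and ENSMMUG00000045290, which have no symbol here and were chosen after their values were seen.

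A second count was that of genes whose 3 post-induction CPM values all lay below, or all above, the 3 baseline values. By this measure, called non-overlap here, 1134 genes were lower (6.17%) and 1011 higher (5.5%). For a single gene an exact permutation test of 3 against 3 cannot give a two-sided p below 0.10. Many genes named below were chosen for non-overlap or for a small p, so their non-overlap is part of the choice and no further support. The median log2 change over all tested genes was 0.08. In the fit 10366 of them were higher and 8007 lower (43.6%), and by animal 48.9, 46.6 and 48.6% were lower in animals 1, 2 and 3.

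Immediate early genes were lower in each of the 3 animals. Of 23 tested members, 18 were lower, 9 without overlap and 0 higher without overlap, and the fitted list median was -0.65. Of the 37 names on this list 24 were found here, and JUN, EGR1 and DUSP1 were among those not found. By animal, 17, 16 and 18 of the 23 were lower in animals 1, 2 and 3, with medians of -0.91, -0.78 and -0.72. KLF6, an injury-induced zinc finger transcription factor on chromosome 9 (3679835 to 3688584, minus strand, build Mmul_8.0.1), stood at 136, 150.4 and 249.2 CPM at baseline in animals 1, 2 and 3 and at 32.9, 27.4 and 63.4 CPM post-induction. Every post-induction value was below every baseline value (log2 change -2.12 ± 0.38 SE, 4.34-fold lower, DESeq2 adjusted p = 0.00031). ZFP36, a protein that destabilizes mRNAs of inflammation, went from 163, 228 and 355 to 27.9, 23.8 and 64.9 CPM (-2.68 ± 0.56, DESeq2 adjusted p = 0.0019). The groups did not overlap, and the log2 changes by animal were -2.54, -3.25 and -2.45 (fitted -3.27 without post-induction animal 3).

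FOS, which forms the transcription factor AP-1 with JUN proteins, was at 24.4, 26.9 and 92.2 CPM before and at 10.65, 10.48 and 8.72 CPM after (-2.27 ± 0.49, DESeq2 adjusted p = 0.0072). The post-induction values lay close together, and most of the spread was in the baseline of animal 3, without which the change was -1.37. JUNB, another AP-1 subunit, was at 18.9, 46.1 and 61.2 CPM before and at 4.24, 0.776 and 4.60 CPM after (-3.72 ± 0.86, DESeq2 adjusted p = 0.0026). MYC, a transcription factor of growth and a driver of ribosome production, was at 33.7, 122.7 and 71.3 CPM before and at 14.8, 5.04 and 13.6 CPM after (-2.77 ± 0.62, DESeq2 adjusted p = 0.0070). In both, animal 2 showed the largest change and animal 1 the smallest, with no overlap of the groups. GADD45B, a stress-induced regulator of growth arrest, showed the same order, from 56.6, 292 and 151 to 28.0, 10.7 and 55.9 CPM, but was not called (-2.40 ± 0.70, and -1.72 without baseline animal 2, DESeq2 adjusted p = 0.085).

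Genes of injury signalling, growth factors and plasminogen control formed a second group that was lower in every animal. Of 21 tested, 16 were lower and 9 were lower without overlap, against 0 higher without overlap, and the medians were -0.91, -0.77 and -0.50 in animals 1, 2 and 3. EPHA2, a receptor tyrosine kinase for ephrins (chromosome 1, 15053252 to 15084423, minus strand), was at 18.2, 26.6 and 25.3 CPM before and at 7, 6.47 and 4.60 CPM after (-1.95 ± 0.37, DESeq2 adjusted p = 0.0023). Both groups of EPHA2 were tight, and the gap between them exceeded the range within either.

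RGCC, a cell cycle regulator that responds to complement, had the largest ratio among the called lower genes with a symbol. It went from 19.0, 24.7 and 121 CPM to 1.48, 0.711 and 4.22 CPM (-4.72 ± 1.01, DESeq2 adjusted p = 0.00031), with log2 changes of -3.57, -4.88 and -4.80 in animals 1, 2 and 3. The fitted value was -3.39 without baseline animal 3 and -5.62 without post-induction animal 3. SPRY4, a feedback inhibitor of receptor tyrosine kinase signalling, was at 9.35, 12.8 and 26.7 CPM before and at 4.08, 6.85 and 5.75 CPM after (-1.55 ± 0.41, DESeq2 adjusted p = 0.086). Chosen after their values were seen, TNFRSF12A, the receptor of TWEAK, was at 9, 6.90 and 7.62 against 2.76, 2.20 and 1.53 CPM (-1.84 ± 0.51), and IHH, a hedgehog ligand, at 36.5, 64.8 and 29.9 against 20.5, 11.1 and 8.92 CPM (-1.70 ± 0.51). The groups did not overlap in either gene, and neither was called by DESeq2 (adjusted p = 0.11 and 0.18).

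**Figure D2:**
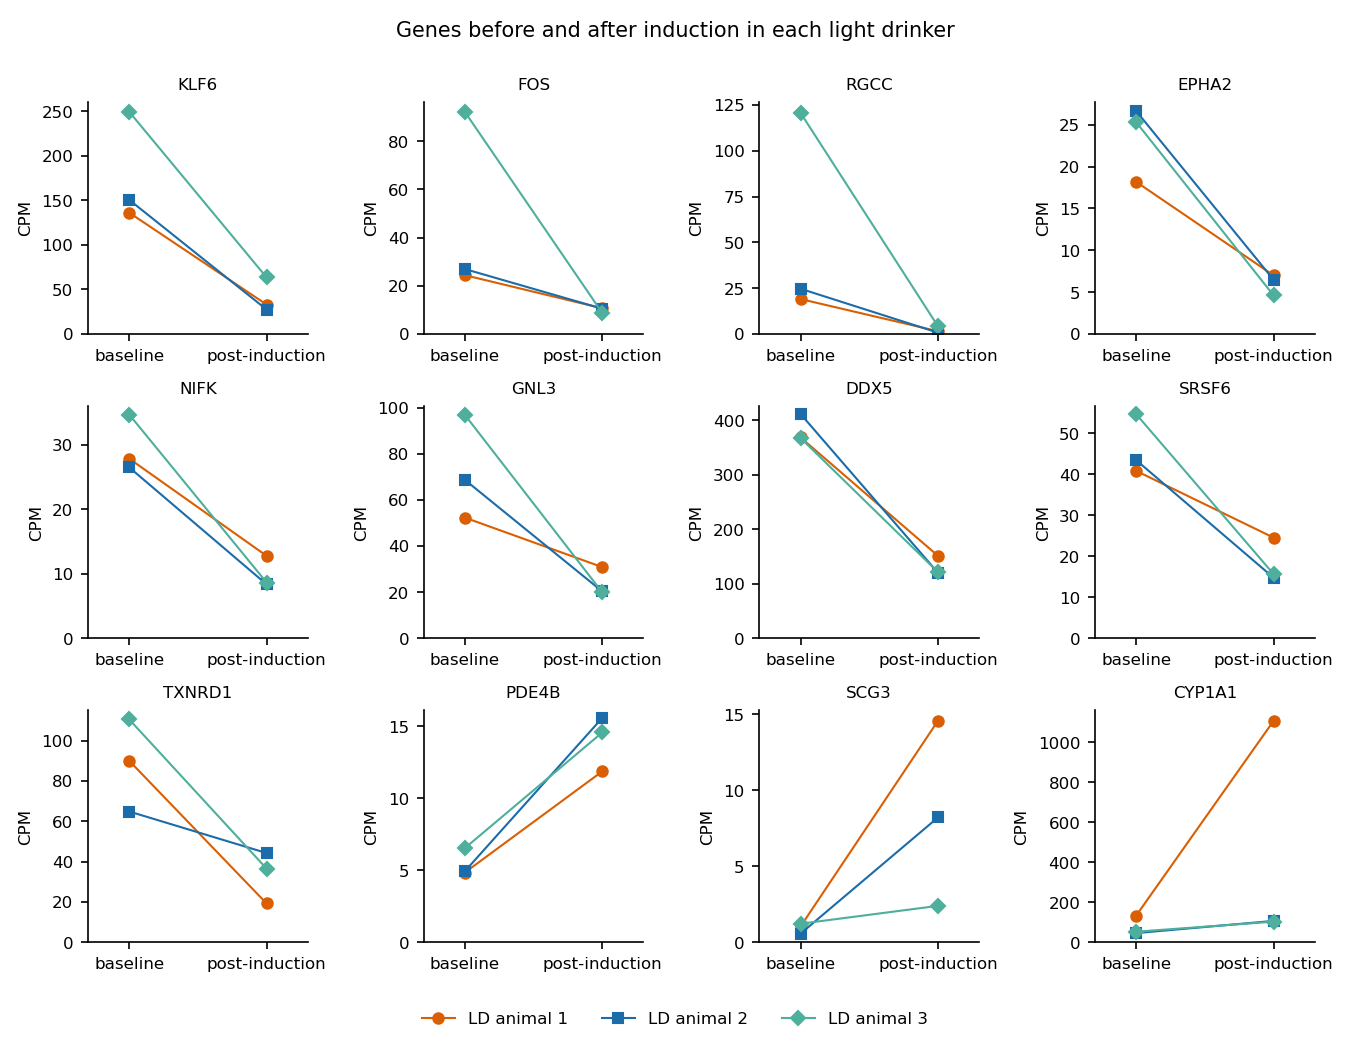
CPM of 12 genes at baseline and post-induction, with 1 line for each light drinker. The first 9 genes lie lower post-induction in all 3 animals, PDE4B and SCG3 higher in all 3, and CYP1A1 reaches 1108 CPM in animal 1 alone.

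Ribosome biogenesis genes were the list with the largest share of members lower without overlap. Of 37 tested, 34 were lower, 24 of them in all 3 animals, and 19 (51.4%) were lower without overlap, against 0 higher without overlap. In addition 18 had an unadjusted p under 0.05, all lower, and DESeq2 called 2 of the list. The list median was -0.33 in animal 1 and -1.14 and -1.16 in animals 2 and 3, so the direction was shared and the size was not. NIFK, a nucleolar protein that binds the Ki-67 antigen (chromosome 12, 9355665 to 9365644, plus strand), was at 27.9, 26.5 and 34.7 CPM before and at 12.8, 8.34 and 8.63 CPM after, with no overlap (-1.58 ± 0.29, 2.99-fold lower, DESeq2 adjusted p = 0.0010). GNL3, the GTP-binding nucleolar protein nucleostemin (chromosome 2, 89496277 to 89505347, minus strand), was at 52.3, 68.6 and 96.8 CPM before and at 30.8, 20.2 and 19.8 CPM after (-1.62 ± 0.34, DESeq2 adjusted p = 0.0076).

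Animal 1 had both the lowest baseline and the highest post-induction value of GNL3, and the groups still did not overlap. NOP56, a core protein of the particles that guide methylation of ribosomal RNA, was at 28.0, 25.1 and 38.7 CPM before and at 15.8, 9.63 and 10.6 CPM after (-1.34 ± 0.36, DESeq2 adjusted p = 0.12). NOP2, a methyltransferase of ribosomal RNA, was at 19.9, 21.5 and 36.6 CPM before and at 10.2, 9.70 and 9.20 CPM after (-1.42 ± 0.39, DESeq2 adjusted p = 0.11). Neither passed the threshold, and NOP56 was highest post-induction in animal 1. Chosen after their values were seen, RRN3, which recruits RNA polymerase I to ribosomal genes, was at 27.5, 35.9 and 45.2 against 15.6, 18.6 and 18.6 CPM, and NCL, the abundant nucleolar protein nucleolin, at 113, 139 and 176 against 73.5, 83.9 and 102 CPM. RPF2, an assembly factor of the large ribosomal subunit that is not on the list, was at 6.75, 8.86 and 7.69 CPM before and at 1.64, 2.78 and 1.44 CPM after (-1.98 ± 0.42, DESeq2 adjusted p = 0.0070).

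RNA helicases of the DEAD and DEAH box families, which unwind RNA during splicing, translation and ribosome assembly, were lower in part. Of 39 tested, 32 were lower, 13 without overlap (33.3%), and 0 were higher without overlap. The median was 0.03 in animal 1, where 19 of 39 were lower, and -0.63 and -0.58 in animals 2 and 3. DDX5, a helicase in splicing and a coactivator of transcription (chromosome 16, 58116830 to 58125985, minus strand), was at 368.8, 412 and 367.8 CPM before and at 151.3, 120.2 and 121.3 CPM after. Both groups spanned a narrow range, and DDX5 had the smallest DESeq2 adjusted p of all genes (-1.55 ± 0.29, 2.92-fold lower, adjusted p = 9.2e-05). DDX20, the helicase of the SMN complex, was at 18.5, 16.3 and 13.9 CPM before and at 8.80, 9.12 and 6.71 CPM after (-0.98 ± 0.28, DESeq2 adjusted p = 0.089). EIF4A1, the helicase that opens mRNA leaders for translation, was at 163, 212 and 296 CPM before and at 131, 86.1 and 95.5 CPM after (-1.10 ± 0.40), again with the smallest change in animal 1.

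Splicing factors and hnRNP proteins divided further. Of 40 tested, 26 were lower and the list median was -0.09 (-0.08, -0.35 and -0.22 in animals 1, 2 and 3), but 13 were lower without overlap (32.5%) and 2 higher without overlap. SRSF6, a serine and arginine-rich splicing factor, was at 40.8, 43.5 and 54.7 CPM before and at 24.5, 14.7 and 15.6 CPM after (-1.34 ± 0.36, DESeq2 adjusted p = 0.11). Its relative SRSF7 was at 16.6, 20.9 and 28.4 against 11.4, 4.14 and 6.33 CPM, SRSF5 at 109, 77.2 and 64.9 against 46.2, 39.4 and 26.2 CPM, and the splicing activator TRA2B at 60.9, 58.6 and 78.9 against 39.3, 33.0 and 31.8 CPM. None of these overlapped between the groups, and none was called by DESeq2. The 2 that were higher without overlap, named after their values were seen, were HNRNPA3 (62.3, 66.6 and 66.3 against 83.6, 67.8 and 79.2 CPM) and HNRNPH3 (4.85, 4.3 and 5.25 against 7.68, 5.37 and 6.71 CPM), whose differences were small.

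**Figure D3:**
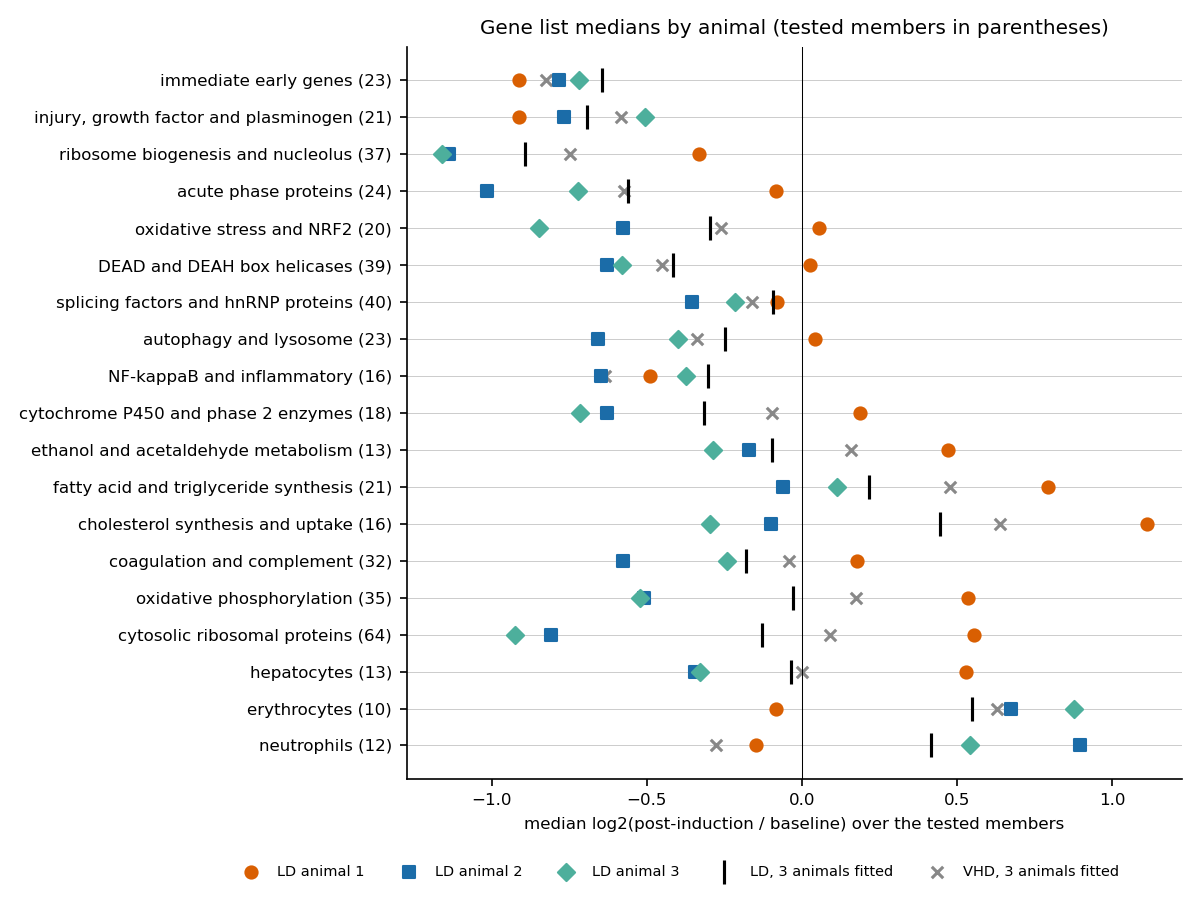
Median log2 change (post-induction over baseline) over the tested members of 19 gene lists in each light drinker, with the fitted median of LD and of VHD. Animals 2 and 3 lie on the same side of 0 for most lists, and animal 1 joins them for the immediate early, injury and ribosome biogenesis lists but lies on the other side for cytosolic ribosomal proteins and oxidative phosphorylation.

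On the list of oxidative stress and NRF2 genes, most members were lower in animals 2 and 3, but not in animal 1. The transcription factor NRF2, encoded by NFE2L2, turns on genes that make and recycle glutathione and thioredoxin. Of 20 tested genes on this list, 15 were lower and 7 lower without overlap, against 0 higher without overlap, and 9, 16 and 17 were lower in animals 1, 2 and 3, with medians of 0.06, -0.58 and -0.85. NFE2L2 itself was at 229, 185 and 152 CPM before and at 80.3, 115 and 113 CPM after (-0.87 ± 0.31, DESeq2 adjusted p = 0.31). SRXN1, which repairs oxidized peroxiredoxins, was at 76.3, 52.7 and 64.3 CPM before and at 27.7, 23.3 and 22.3 CPM after (-1.40 ± 0.32, DESeq2 adjusted p = 0.016), and was the only member called.

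TXNRD1, thioredoxin reductase, was at 90.0, 64.8 and 111 CPM before and at 19.2, 44.2 and 36.5 CPM after (-1.41 ± 0.40, DESeq2 adjusted p = 0.11). GCLC, the catalytic subunit of the enzyme that limits glutathione synthesis, was at 261, 182 and 340 CPM before and at 130, 149 and 140 CPM after (-0.90 ± 0.34). In NFE2L2 and TXNRD1 animal 1 showed the largest change of the 3, the reverse of the order in ribosome biogenesis. SQSTM1, an autophagy receptor that is also a target of NRF2, was at 471, 495 and 477 CPM before and at 209, 181 and 206 CPM after, with no more than a narrow range in either group (-1.28 ± 0.34, DESeq2 adjusted p = 0.066). On the list of autophagy and lysosome genes, which holds SQSTM1 too, 20 of 23 were lower and 6 lower without overlap, with medians of 0.04, -0.66 and -0.40 in animals 1, 2 and 3.

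Acute phase proteins were lower chiefly in animals 2 and 3. Of 24 tested, 21 were lower and 9 lower without overlap (37.5%), with 0 higher without overlap. The median was -0.08 in animal 1, -1.01 in animal 2 and -0.72 in animal 3. Of the 28 names on this list 24 were found here, and SAA1, HP, ORM2 and PTX3 were not. HAMP, which encodes the iron hormone hepcidin, was at 1510, 1960 and 4380 CPM before and at 731, 252 and 864 CPM after, without overlap (-2.09 ± 0.57, DESeq2 adjusted p = 0.056). IL1RN, the interleukin 1 receptor antagonist, was at 18.9, 14.0 and 80.0 CPM before and at 11.8, 6.53 and 5.75 CPM after (-2.22 ± 0.61, and -1.02 without baseline animal 3, DESeq2 adjusted p = 0.073). SERPINA3, an inhibitor of neutrophil proteases, was at 2490, 2590 and 6800 CPM before and at 2360, 562 and 1340 CPM after, a difference that was almost absent in animal 1 (-1.48 ± 0.60). Without baseline animal 3 it was -0.84, that of HAMP -1.49 and that of CRP -1.003.

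CRP, the classical acute phase protein, overlapped between the groups, at 45.5, 106 and 271 CPM before and 40.8, 24.4 and 48.4 CPM after (-1.90 ± 0.69, edgeR adjusted p = 0.855). The chains of fibrinogen, the clotting protein, were chosen after their values were seen and did not overlap. FGA was at 11900, 16100 and 16300 against 11600, 6670 and 9370 CPM, FGB at 19900, 22200 and 25600 against 14500, 12000 and 17800 CPM, and FGG at 15600, 20000 and 18900 against 13300, 10900 and 14400 CPM. In all 3 chains the change was smallest in animal 1. Baseline animal 3 held the highest CRP, HAMP, SERPINA3, IL1RN, FOS and KLF6 of the LD libraries, and without that library the fitted median of the acute phase list was -0.51, against -0.56 with it, and that of the immediate early list -0.54.

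On the NF-kappaB and inflammatory list, 9 of 16 tested genes were lower and 7 higher, with 4 lower and 0 higher without overlap. Of its 33 names 19 were found here, and IL1B, CXCL8, CCL3 and SOCS3 were among those not found. The medians were -0.49, -0.65 and -0.37 in animals 1, 2 and 3, 5 members had an unadjusted p under 0.05, all of them lower, and in VHD the median was -0.64 with 7 lower without overlap. The 4 were IRAK2, a kinase of interleukin 1 signalling (23.9, 24.4 and 38.6 against 6.47, 13 and 11.6 CPM, -1.49 ± 0.36, DESeq2 adjusted p = 0.035), IL1RN, and the NF-kappaB subunits RELA (46.0, 51.9 and 48.3 against 29.9, 23.6 and 25.9 CPM) and RELB (2.25, 3.61 and 2.23 against 1.32, 1.42 and 0.959 CPM). CD14, the endotoxin coreceptor of macrophages that hepatocytes also make, was at 368, 406 and 456 CPM before and at 299.9, 93.5 and 133 CPM after (-1.22 ± 0.54). Without post-induction animal 1 its log2 change was -1.86. Of the 11 macrophage markers tested, CD14 among them, 5 were lower and 6 higher, with medians of 0.29, 0.15 and 0.27 in animals 1, 2 and 3.

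Single genes of other lists were lower without overlap. PLIN2, a coat protein of lipid droplets, was at 63.3, 66.6 and 162 CPM before and at 35, 15.3 and 18.0 CPM after (-2.09 ± 0.49, and -1.51 without baseline animal 3, DESeq2 adjusted p = 0.019), while 11 of 22 tested genes of its list, lipid droplets and lipoproteins, were lower (median 0.02). MAT2A, which makes S-adenosylmethionine and is low in the quiescent liver, was at 114, 231 and 159 CPM before and at 54.3, 50.0 and 55.3 CPM after (-1.66 ± 0.39, DESeq2 adjusted p = 0.027). XBP1, which drives genes of the response to unfolded proteins, was at 169, 267 and 386 CPM before and at 97.7, 54.6 and 54.5 CPM after (-1.99 ± 0.47, DESeq2 adjusted p = 0.019). In none of these did the groups overlap. The list of the unfolded protein response was divided, with 8 of 22 tested genes lower and 14 higher, a fitted median of 0.06 and medians of 0.07, -0.25 and 0.02 in animals 1, 2 and 3. Without overlap, 4 were lower (18.2%) and 1 higher. Beside XBP1 the lower ones were TRIB3, a pseudokinase induced by stress (24.6, 28.8 and 20.9 against 17.9, 8.54 and 6.33 CPM), SYVN1, a ubiquitin ligase of the endoplasmic reticulum (25.27, 25.3 and 48.4 against 22.6, 20.2 and 21.2 CPM), and HERPUD1, of the same degradation pathway (249, 295 and 279 against 178, 137 and 248 CPM), the last chosen after its values were seen.

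SGK1, a kinase under glucocorticoid control, was at 30.5, 68.5 and 122.7 CPM before and at 11.7, 18.5 and 20.3 CPM after (-2.14 ± 0.47, DESeq2 adjusted p = 0.0076). On the glucocorticoid list 8 of 12 genes were higher (33.3% lower, against 43.6% of all genes, median 0.17), with 2 higher and 2 lower without overlap. PPARGC1A, a coactivator of gluconeogenesis and mitochondrial genes, was at 70.6, 64.6 and 137 CPM before and at 34.4, 27.4 and 48.9 CPM after (-1.3 ± 0.43, DESeq2 adjusted p = 0.29), and 12 of 22 genes of glucose metabolism were lower (median -0.05). CREM, a transcription factor that responds to cyclic AMP, was at 72.0, 110.1 and 165 CPM before and at 42.3, 51.1 and 63.9 CPM after (-1.14 ± 0.34). SLC20A1, a phosphate transporter, was at 14.0, 22.4 and 19.3 CPM before and at 5.41, 5.69 and 6.04 CPM after, and the general transcription factor GTF2B at 42.1, 40.5 and 44.7 CPM before and 21.7, 16.3 and 16.4 CPM after (DESeq2 adjusted p = 0.0070 and 0.0026). FGF21, a liver hormone that curbs alcohol intake, was at 2.94, 4.74 and 0.934 CPM before and at 0.371, 1.23 and 0.575 CPM after, and the groups overlapped.

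The list of ethanol and acetaldehyde metabolism divided by animal, with 4, 10 and 9 of 13 tested genes lower in animals 1, 2 and 3 and medians of 0.47, -0.17 and -0.29. CYP2E1, which ethanol is known to stabilize as a protein, was at 2106, 2377 and 2278 CPM before and at 2039, 1872 and 1812 CPM after. The groups did not overlap, yet the change was small against its error (-0.24 ± 0.39, edgeR adjusted p = 0.974). ADH1B, a class I alcohol dehydrogenase, was at 3001, 4496 and 2977 CPM before and at 2451, 3231 and 2531 CPM after (-0.35 ± 0.39), with overlap. In the fit 7 of the 13 were lower and 6 higher, and CYP2E1 was the only one without overlap. ACSS2, also on this list, had log2 changes of 3.79, 0.21 and -0.65.

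Other drug-metabolizing enzymes split by gene. Of 18 tested cytochrome P450 and phase 2 genes, 14 were lower and 4 lower without overlap, with medians of 0.19, -0.63 and -0.71 in animals 1, 2 and 3. CYP2C19 was at 816, 998 and 1210 CPM before and at 738, 434 and 467 CPM after (-0.88 ± 0.37), and CYP3A7 at 844, 566 and 686 CPM before and 453, 108 and 138 CPM after (-1.58 ± 0.75). CYP3A7 has near-identical relatives of the CYP3A family, between which the counting could divide reads. CYP1A1, a target of the aryl hydrocarbon receptor (chromosome 7, 51932767 to 51938865, minus strand), went the other way, from 133.8, 46.1 and 52.97 CPM to 1108, 107 and 103.2 CPM. Its log2 change was 3.05, 1.21 and 0.96 in animals 1, 2 and 3, and the groups overlapped only through the high baseline of animal 1 (2.50 ± 0.84, edgeR adjusted p = 0.855). The fitted change rested on post-induction animal 1, and without it was 0.44.

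Cytosolic ribosomal protein genes, unlike the genes of ribosome biogenesis, differed in direction between the animals. They were higher in animal 1, with 2 of 64 lower and a median log2 change of 0.55, and lower in animals 2 and 3, with 59 and 62 of 64 lower and medians of -0.81 and -0.92. As a result 0 of the 64 were without overlap, and the fitted median was -0.13. RPL18, a protein of the large subunit, was at 204, 191 and 163 CPM before and at 231, 82.3 and 66.7 CPM after. Ribosomal protein genes have many near-identical pseudogenes, which makes the counts of single members uncertain.

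Oxidative phosphorylation genes followed the same division. Of 35 tested, 1 was lower in animal 1 and 31 each in animals 2 and 3, with medians of 0.53, -0.51 and -0.52, and 0 were without overlap. UQCRH, a subunit of respiratory complex III, was at 83.4, 88.4 and 98.1 CPM before and at 93.4, 36.7 and 40 CPM after. The coagulation and complement genes had medians of 0.18, -0.58 and -0.24, and 31 of 32 were lower in animal 2 but 7 in animal 1.

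**Figure D4:**
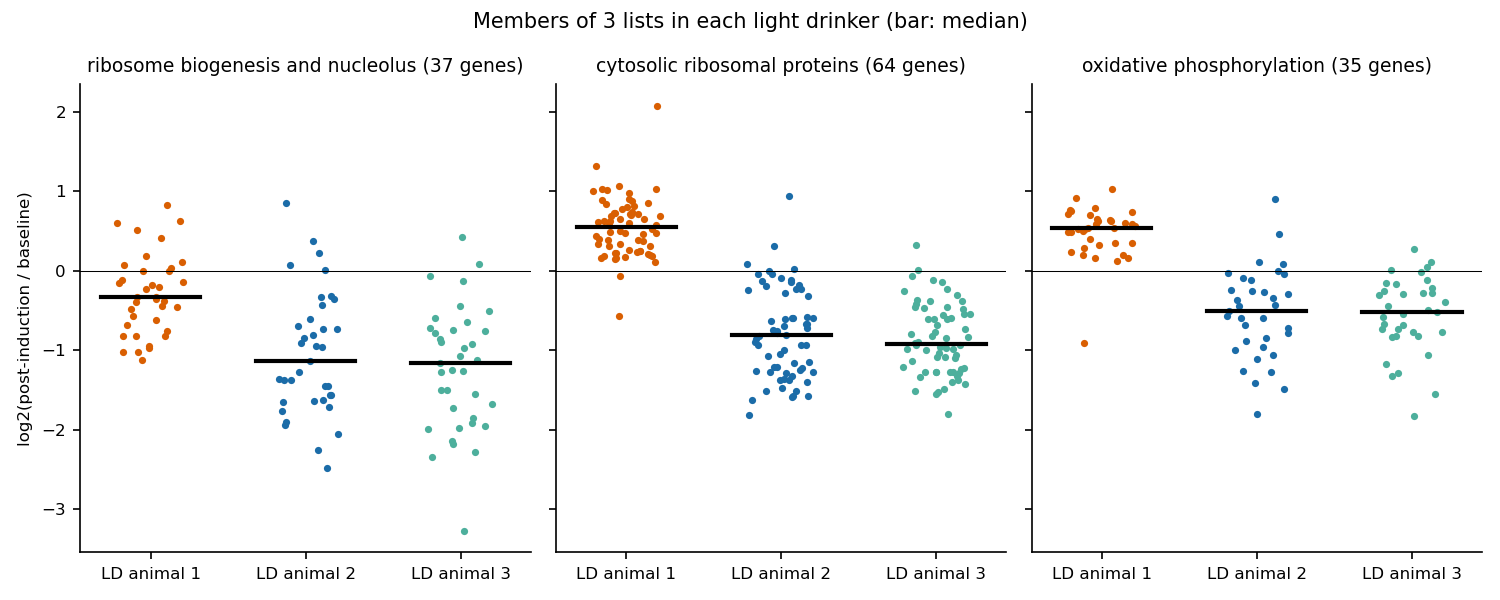
Log2 change (post-induction over baseline) of each tested member of 3 lists in each light drinker, with the median as a bar. Ribosome biogenesis genes have medians of -0.33, -1.14 and -1.16, while ribosomal protein and oxidative phosphorylation genes lie above 0 in animal 1 and below 0 in animals 2 and 3.

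Some marker lists of cell types, but not all, divided the animals in the same way. The summed hepatocyte markers went from 206700, 231500 and 197500 CPM to 249400, 171100 and 173100 CPM, and their median log2 change was 0.53, -0.34 and -0.33 in animals 1, 2 and 3. The 10 erythrocyte markers tested had medians of -0.08, 0.67 and 0.88, while their summed level went from 37.55, 33.78 and 65.4 CPM to 57.18, 34.21 and 43.33 CPM, higher in animal 1 and lower in animal 3 against the sign of the medians. The 12 neutrophil markers had medians of -0.15, 0.90 and 0.54, and their summed level went from 33.4, 34.16 and 38.16 CPM to 33.44, 48.37 and 63.27 CPM. Platelet markers had medians of -0.72, 0.81 and 0.64, markers of stellate cells and fibroblasts 0.32, -0.35 and -0.44, and endothelial markers 0.42, -0.01 and -0.15. B and plasma cell markers had medians of -0.56, 0.54 and -0.12. No such division of the medians was seen for macrophage markers, for cholangiocyte markers (0.28, 0.16 and 0.08) or for T and NK cell markers (0.07, 0.50 and 0.25). The summed macrophage markers were lower in each animal, against the sign of their medians, from 649, 560.1 and 761.1 CPM to 528.9, 236.5 and 449 CPM. The globin genes HBA1, HBA2 and HBB were not matched here, and none of the tested members of the 3 lists was at 0 in all LD libraries. The part of these markers in the lower ribosomal protein, acute phase and helicase genes of animals 2 and 3 was not tested.

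Lipid and sterol synthesis set animal 1 apart in another way. Cholesterol synthesis and uptake genes had medians of 1.11, -0.10 and -0.30 in animals 1, 2 and 3, and their summed level went from 815.6, 825.6 and 722 CPM to 1793, 718.9 and 630.7 CPM. ACSS2, which turns acetate, the end product of ethanol oxidation, into acetyl-CoA, was at 6.58, 18.3 and 7.76 CPM before and at 92.8, 21.3 and 4.89 CPM after (1.85 ± 0.79). Without animal 1 its log2 change was -0.03. DHCR7, the last enzyme of cholesterol synthesis, was at 21.6, 26.6 and 19.8 CPM before and at 108, 40.3 and 19.5 CPM after (1.3 ± 0.58, and 0.40 without post-induction animal 1). In contrast, LSS, which forms the sterol ring, was higher in each animal, from 2.25, 4.3 and 1.87 to 7.58, 5.69 and 5.08 CPM, and so was ACACB, which makes the malonyl-CoA that restrains fatty acid oxidation, from 9.86, 19.7 and 18.9 to 27.3, 32.6 and 40.3 CPM (1.11 ± 0.41 and 1.04 ± 0.36, edgeR adjusted p = 0.855 for each).

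Of the 7 genes that DESeq2 called higher, 2 were on the list of cyclic AMP and secreted proteins. That list was written with earlier results of these data known, so its holding called genes is no independent result. Of its 24 tested members 15 were higher (37.5% lower, against 43.6% of all genes). Without overlap 3 were higher (12.5%, against 5.5% of all genes), and the medians were 0.29, -0.08 and 0.34 in animals 1, 2 and 3. PDE4B, which degrades cyclic AMP (chromosome 1, 65774718 to 66141524, plus strand), was at 4.85, 4.93 and 6.54 CPM before and at 11.9, 15.6 and 14.6 CPM after, without overlap (1.36 ± 0.30, 2.56-fold higher, DESeq2 adjusted p = 0.0095). SCG3, a secretogranin of secretory granules, was at 1.04, 0.569 and 1.22 CPM before and at 14.6, 8.21 and 2.40 CPM after (3.17 ± 0.79, DESeq2 adjusted p = 0.017). PAEP, a secreted lipocalin, was at 1.21, 1.33 and 0.862 CPM before and at 8.21, 7.95 and 1.53 CPM after (2.39 ± 0.68, DESeq2 adjusted p = 0.10). In both SCG3 and PAEP the change was smallest in animal 3, at log2 values of 0.90 and 0.74, and the fitted value of SCG3 was 2.51 without post-induction animal 1.

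MMP17, a membrane-bound matrix metalloproteinase, was at 0.173, 0.38 and 0.503 CPM before and at 0.636, 5.50 and 9.11 CPM after (3.70 ± 1.04, DESeq2 adjusted p = 0.027). These values rested on few counts, 1, 6 and 7 before and 12, 85 and 95 after. PHLDB1, a protein of cell adhesion, was at 3.29, 1.27 and 1.08 CPM before and at 4.50, 9.63 and 12.7 CPM after (2.33 ± 0.61, DESeq2 adjusted p = 0.042). In both, the change was smallest in animal 1, at log2 values of 1.33 and 0.44, and the fitted value of MMP17 was 2.98 without post-induction animal 3. RSRP1, a serine and arginine-rich protein, was at 3.46, 2.97 and 6.47 CPM before and at 18.1, 8.73 and 14.7 CPM after (1.68 ± 0.47), and ACTN1, the actin cross-linker alpha-actinin, at 21.1, 21.0 and 15.4 CPM before and 35.9, 47.5 and 46.5 CPM after (1.18 ± 0.34). Neither was called by DESeq2 (adjusted p = 0.13 and 0.16).

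Single genes of lists that were divided were higher without overlap. HNF4A, a transcription factor of hepatocytes, was at 112, 142 and 83.8 CPM before and at 161, 182 and 151 CPM after (0.55 ± 0.34), whereas 7 of the 13 hepatocyte markers, the list that holds it, were lower. CRY2, a repressor of the circadian clock, was at 55.4, 63.7 and 50.0 CPM before and at 92.9, 85.0 and 115 CPM after (0.79 ± 0.32). On the clock list 9 of 18 tested genes were higher and 9 lower, with CRY2 the 1 higher without overlap and its relative CRY1 the 1 lower, at 5.71, 7.08 and 7.19 CPM before and 4.08, 4.27 and 4.79 CPM after. ABCB11, the bile salt export pump, was at 7.44, 9.55 and 9.56 CPM before and at 12.1, 19.0 and 15.9 CPM after (0.82 ± 0.35). None of these genes overlapped between the groups, and each had an edgeR adjusted p of 0.855 or more. Such numbers were near the share over all genes, 5.5% higher and 6.17% lower without overlap. The share was 7.69% each way for hepatocyte markers and 5.56% each way for clock genes. On the bile acid list, which holds ABCB11, 2 of 20 were higher without overlap (10%) and 0 lower. The hour of the biopsies was not used here, and its part in the clock genes was not tested.

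The responses of LD livers were then set against those of VHD livers to the same induction. The edgeR test of the difference between the responses called 0 of 18373 genes (smallest adjusted p = 0.9999), with 239 (1.3%) at an unadjusted p under 0.05, and DESeq2 called 1. The VHD medians had the same sign for several lists that were lower in LD, at -0.83 against -0.65 for immediate early genes, -0.58 against -0.69 for the injury list, -0.75 against -0.89 for ribosome biogenesis and -0.57 against -0.56 for acute phase proteins. They had the other sign for cytosolic ribosomal proteins (0.09 against -0.13), methionine, folate and glutathione (0.03 against -0.17), ethanol metabolism (0.16 against -0.10) and oxidative phosphorylation (0.18 against -0.03). By animal the VHD medians were -0.51, 1.22 and -0.55 for cytosolic ribosomal proteins and -0.19, 0.88 and -0.05 for oxidative phosphorylation. For both lists the animals thus differed in sign within each class. The VHD animals had 0.003, -0.19 and -0.37 for methionine, folate and glutathione, and 0.06, 0.08 and 0.24 for ethanol metabolism. Of the 54 DESeq2 calls in LD, 52 had a VHD value of the same sign, as had 1672 of all 2145 genes without overlap in LD. Non-overlap in the same direction was found in both classes for 261 of the 1134 lower LD genes and of the 716 lower VHD genes (3.9% of genes), and for 68 of the 1011 higher LD genes and of the 515 higher VHD genes (2.8%).

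A few named genes had a different value in VHD, although none passed the adjusted test. MAGED1 (identifier ENSMMUG00000021120), an adaptor of neurotrophin receptor signalling, was at 20.25, 13.29 and 14.52 CPM before and at 33.18, 58.91 and 33.84 CPM after in LD (1.39 ± 0.37) but had a log2 change of 0.07 ± 0.36 in VHD (difference 1.33 ± 0.51, unadjusted p = 0.022, edgeR). CYP7A1, the enzyme that limits bile acid synthesis, was at 15.6, 9.05 and 12.5 CPM before and at 9.65, 12.2 and 42.8 CPM after in LD (0.80 ± 0.87), against -2.37 ± 0.92 in VHD (unadjusted p = 0.025, edgeR). The LD value rested on animal 3, and without post-induction animal 3 it was -0.18. GZMA, a protease of cytotoxic lymphocytes, was at 0.173, 0.443 and 0.575 CPM before and at 0.848, 0.711 and 1.53 CPM after in LD (1.24 ± 0.72) and at -1.25 ± 0.69 on the log2 scale in VHD (unadjusted p = 0.025, edgeR).

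Mature miRNAs were measured from the same RNA. miR-122-5p, the main miRNA of hepatocytes and listed as miR-122a-5p, made up 62.76 to 72.43% of LD miRNA counts and differed by 0.12 ± 0.92 on the log2 scale. Of 427 tested miRNAs, edgeR called 0 (smallest adjusted p = 0.689), 9 had an unadjusted p under 0.05 (2.11%), 6 of them lower (1.41%) and 3 higher (0.703%), and DESeq2 also called 0, with 13 at an unadjusted p under 0.05. Without overlap, 30 were lower (7.03%) and 12 higher (2.81%), against 2 lower (0.468%) and 4 higher (0.937%) in VHD. As for mRNA, changes of animals 2 and 3 went together over the 427 miRNAs (r = 0.588) and those of animal 1 did not (r = -0.276 and -0.217).

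miR-7167-5p had the smallest p. It was counted 11, 28 and 53 times before and 9, 16 and 4 times after, or 108, 119 and 183 against 32.2, 25.6 and 12.3 CPM (-2.54 ± 0.69, edgeR adjusted p = 0.689). miR-21-3p, the minor strand of miR-21, was counted 5, 29 and 48 times before and 6, 12 and 0 times after, or 49.2, 123.1 and 166 against 21.5, 19.2 and 0 CPM. Both were without overlap and rested on few counts. The major strand miR-21-5p, an abundant miRNA linked to inflammation and fibrosis, overlapped between the groups, at 80240, 26390 and 23820 CPM before and 54540, 68680 and 41410 CPM after.

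Other miRNAs lower without overlap were miR-665, at 413, 619.8 and 566.5 CPM before and 340, 84.6 and 194 CPM after (-1.38 ± 0.61), and, with -3.06 without post-induction animal 1 against -1.70 with it, miR-541-3p of the imprinted DLK1-DIO3 cluster, at 88.6, 93.4 and 152 CPM before and 78.8, 6.39 and 21.6 CPM after. The list used for this cluster did not go with it, since 18 of its 38 tested miRNAs were lower and the median was 0.01. That list need not hold every miRNA of the cluster, and miR-665 was not on it. Among those higher without overlap, miR-29c-5p was at 68.9, 33.96 and 55.3 CPM before and at 89.55, 119.8 and 182 CPM after (1.33 ± 0.63), and miR-3154 at 177, 289 and 235 CPM before and 297, 473 and 651 CPM after (1.01 ± 0.62). Each had an edgeR adjusted p of 0.986.

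The let-7 family, which restrains growth genes including MYC, was higher in 10 of 12 tested members, with a fitted median of 0.37 against -0.06 over all miRNAs. By animal, 3, 5 and 5 of the 12 were lower in animals 1, 2 and 3, with medians of 0.36, 0.25 and 0.19, and 4 were higher in all 3 animals, while without overlap 2 were higher and 1 lower. let-7c-5p was at 6947, 4619 and 4473 CPM before and at 9266, 7122 and 8010 CPM after (0.61 ± 0.82), without overlap. The relative miR-98 went the other way, at 1043, 1325 and 1351 CPM before and 985, 648 and 462.5 CPM after (-0.83 ± 0.58). Since let-7 members differ by few bases, reads could be divided between them. The median of all miRNAs depended on the scaling, at -0.06 with TMM factors, 0.08 with RLE factors and 0.19 with the normalized values of the authors plus 0.1, and the let-7 median stayed above 0 under all 23 alternatives, between 0.02 and 0.65.

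Several abundant or known miRNAs differed in direction between the animals. miR-148a-3p, an abundant hepatocyte miRNA, was at 16480, 32240 and 26070 CPM before and at 18660, 771 and 1252 CPM after, so that it was level in animal 1 and far lower in animals 2 and 3 (-1.85 ± 1.31, and -4.63 without post-induction animal 1). Its other strand miR-148a-5p was counted 1, 37 and 75 times before and 34, 5 and 1 times after. miR-145-5p, which is typical of smooth muscle and other stromal cells, was at 443, 573 and 722 CPM before and at 659, 83.04 and 83.25 CPM after. miR-34a-5p, a target of p53, showed the inverse, at 49.2, 17.0 and 20.7 CPM before and 7.16, 92.6 and 92.5 CPM after.

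**Figure D5:**
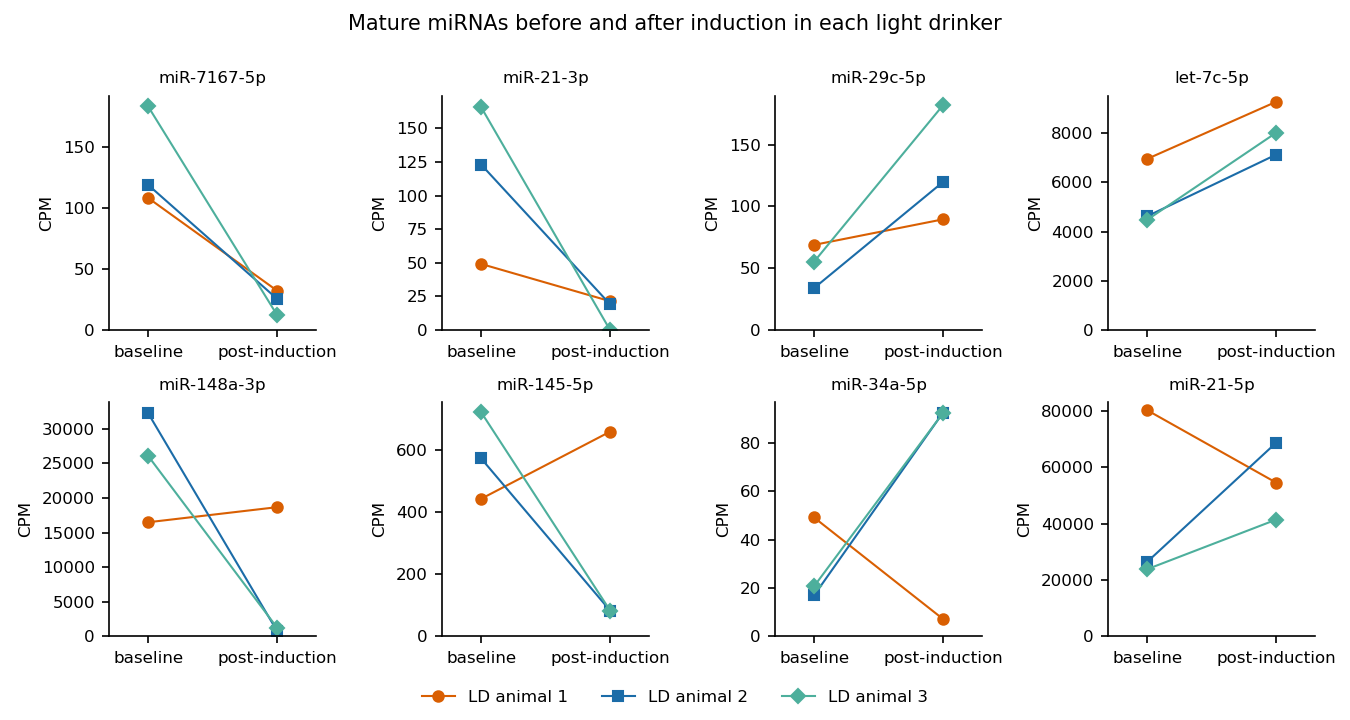
CPM of 8 mature miRNAs at baseline and post-induction, with 1 line for each light drinker. miR-7167-5p and miR-21-3p lie lower and miR-29c-5p and let-7c-5p higher in all 3 animals, whereas the lines of animal 1 run apart from those of animals 2 and 3 for the lower 4 miRNAs.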

How the data were processed

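Total RNA of each biopsy was made into mRNA and miRNA libraries with 1 combined kit and sequenced together, per the labels' protocols. The authors deposited expected counts per Ensembl transcript and per mature miRNA, and the submitters' processing notes list Mmul_8.0.1 as the build and name BWA, Bowtie and Partek without versions. The authors also deposited normalized signal values, which equalled the raw value times 1 constant per library (relative SD at most 1.4e-04) and were used only in alternatives. The transcript values were whole numbers in 44.9% of cells.

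The 40611 transcripts were summed into 23993 gene identifiers (8522 without a symbol here) and rounded, as were the counts of 903 miRNAs. A start position may be off by 1 base. After filterByExpr by group, 18373 genes and 427 miRNAs entered edgeR 4.0.16 (R 4.3.3), with TMM factors, the 4 group means over all 12 libraries, robust quasi-likelihood F tests, Benjamini-Hochberg adjustment and a threshold of 0.05. CPM are scaled by the TMM factors. Changes per animal are log2 CPM with a prior count of 2. Alternatives used DESeq2 1.42.0 and limma 3.58.1; DESeq2 gave no adjusted p for 2547 genes. On data simulated for the LD gene comparison (17905 genes), edgeR recovered 0% of 2-fold, 46% of 4-fold and 86% of 8-fold changes, and for the LD miRNA comparison (392 miRNAs) 0%, 20% and 60%.

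Libraries were grouped and paired by the animal numbers in their titles. As a check, deviations from the group means correlated between the libraries of 1 animal at 0.0748, -0.0162 and 0.351 for LD animals 1, 2 and 3. Between baseline and post-induction libraries of different LD animals the values ran from -0.257 to 0.187. The shared animal was thus not clearly visible. No paired model is stated, so the animal term was an alternative. The p-values measure the spread between 3 animals a group.

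The comparison, the 39 gene and 11 miRNA lists and the rule for named genes were chosen with earlier results of these data known. The rule took symbols whose mean log2 CPM reached 1, or 3 for miRNAs, that moved the same way in 3 of 3 animals without overlap, the 16 lower and 10 higher with the smallest p (10 and 10 for miRNAs), up to 4 members of each list, and a panel. Not all of these are printed. List names that matched no symbol here could not be tested, and the share of names found differed between lists. Of 165 named symbols with a RefSeq entry (assembly T2T-MMU8v2.0), 161 lay on the same chromosome there. One single-gene result is not reported here.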

Additional observations from a re-analysis of the deposited data

Results flagged for a closer look

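The macrophage and Kupffer cell markers had a median log2 change of 0.086 in LD, with medians of 0.29, 0.15 and 0.27 in animals 1, 2 and 3, and of -0.27 in VHD, with a negative median in each of the 3 VHD animals. The opposite sign of the median in every animal of the 2 classes brought this list here, and the difference between the classes was not tested. The summed level went against the medians in LD, from 649, 560.1 and 761.1 CPM to 528.9, 236.5 and 449 CPM. In VHD it went from 568.5, 519 and 1241 CPM to 367, 789.3 and 385.9 CPM, higher in animal 2. Of the 11 members tested, 6 were higher and 5 lower in LD, and 1, CD14, was lower without overlap. Without baseline animal 2 the LD median was -0.023.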

How the results depend on the processing

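Over 95 named genes and miRNAs and up to 23 alternatives each, 2085 of 2102 values kept their direction, and 24 passed the threshold, 23 with DESeq2. Many of these features were named because all 3 animals moved the same way without overlap. Their direction could hardly turn when libraries were left out, so the first count is no independent check. The number of genes called in LD was 0 except 54 with DESeq2 and 3 with the replicate block on the 6 LD libraries, and DESeq2 called 1 gene for the difference between the classes. The replicate block changed no other call. The median of immediate early genes (-0.65) was -0.91 with the replicate block, -0.92 with it on the 6 LD libraries alone, -1.02 with post-induction animal 1 as the lone post-induction library (chosen after seeing the data), -0.94 with voom and a random animal effect, -0.91 and -0.81 with limma-trend on normalized values plus 0.1 and plus 1, -0.94 with a term for the 5 and 7 libraries on either side of the main component, and -1.02 to -0.54 over all alternatives. Leaving out 1 library gave -0.88 to -0.54, and leaving out animal 1 or 2 gave -0.85. The injury list was at -0.47 with limma-trend plus 1.

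Directions turned as follows, and the cause was not tested. With post-induction animal 1 as the lone post-induction library, CYP7A1 was at -0.35, RPL18 at 0.32, UQCRH at 0.061, miR-145-5p at 0.23 and miR-34a-5p at -1.79. With the term for the 5 and 7 libraries, CYP7A1 was at -0.59, miR-21-5p at -0.40, miR-145-5p at 0.25, let-7g-5p at -0.11, miR-34a-5p at -0.017 and miR-122a-5p at -0.023. Without animal 1, ACSS2 was at -0.028 and miR-122a-5p at -0.030, and without post-induction animal 1 miR-122a-5p was at -0.10. Without animal 2, miR-21-5p was at -0.13 and the splicing list at 0.010, and without post-induction animal 2 that list was at 0.0009396. Without animal 3, CYP7A1 was at -0.17, and without post-induction animal 3 at -0.18. Without baseline animal 2, the macrophage list was at -0.023. Over the libraries left out in turn, CYP7A1 reached 1.15, the splicing list -0.34 and miR-122a-5p 0.29. In the simulation edgeR did not recover 2-fold changes, so its lack of calls cannot decide about changes of that size. Each simulated gene was drawn on its own, without the division of the libraries along the main component. Recovery of 4-fold and larger changes under such a division was thus not tested. DESeq2 was not run on the simulated data, and depth was not varied.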
